A study of Mus musculus with 8 samples.

Results

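The genes described here are 41 mouse genes of DNA replication and of entry into S phase, the G1/S transition, measured in liver across 4 diet groups. The list names them by function and uses no measured value, but it was chosen with earlier results of these data known. So were the other lists below, and shares set against all genes carry this limit. The list was grouped by role: 14 genes of origin licensing and firing, 12 of the replication fork, 4 of nucleotide supply, 2 that maintain DNA methylation behind the fork, 5 G1/S cyclins and kinases, 2 activating E2F factors, and the inhibitor Cdkn1a with the checkpoint kinase Chek1. All 41 had probes on the array, 58 of 41174 gene probes. The test took in 17267 of 27218 gene names, those with a probe that the scanner software marked as well above background in both samples of some group. This filter kept 38 of the 41 genes. Cdc6, Orc1 and Cdk2 did not pass and have no test. Of the 38, 34 were well above background on all 8 arrays. Cdc45 and Chek1 passed through LF_LF alone, so their place in that comparison was partly fixed by the filter.

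Total RNA from livers of male C57Bl/6J mice, an inbred strain, was labelled for 8 single-colour Agilent arrays, 2 per group, at 14 weeks of age and after a 4 h fast. In BD_HF the dams ate the Standard Breeder Diet, and the offspring got the High Fat Diet after weaning (fat supplying 60% of energy). In LF_HF the offspring got that same High Fat Diet, but the dams had been moved on embryonic day 10.5 to the Vitamin A Sufficient Low Fat Diet (fat supplying 12%). VAD_VAD is the group whose dams, from embryonic day 10.5, and offspring ate the Vitamin A Deficient Low Fat Diet (12% likewise). LF_LF dams and offspring ate the Vitamin A Sufficient Low Fat Diet in both periods. Thus VAD_VAD and LF_LF differ in vitamin A, LF_HF and LF_LF in the diet after weaning, and BD_HF and LF_HF in the maternal diet. BD_HF and LF_LF differ in both periods, and this comparison is not among the 3 that the study states. The comparisons share LF_LF or LF_HF arrays and are therefore not independent of each other. Whether the 8 samples are 8 separate mice is not stated in the labels; the p-values therefore reflect only how far these samples scatter, which may be technical.

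Signals are given as log2 values relative to the 75th percentile of each array, which is 0, and a difference is between group means with its standard error (SE), n = 2 arrays per group. LF_HF replicate 1 stood apart from the other 7 arrays. On it, 82.2% of gene probes were well above background, against 56.5% to 64.2% elsewhere, and 2707 spots were outliers, against 46 to 316. Replicate agreement differed as well: over the 38 genes, the SD of the difference between the 2 arrays of a group was 0.37 in BD_HF, 1.09 in LF_HF, 1.07 in VAD_VAD and 0.33 in LF_LF. Results are therefore given with and without that array. Without it, LF_HF has 1 array, which is assumed to vary like the other groups. Albumin, a hepatocyte product, was at 9.50 to 10.72 on the 8 arrays, and 11 of 12 hepatocyte markers were measured.

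Before S phase, the origin recognition complex, Cdc6 and Cdt1 load the Mcm2 to Mcm7 helicase onto DNA as an inactive ring, and Cdc45 and the GINS complex then turn it into a moving helicase. Cyclin D with Cdk4 and cyclin E with Cdk2 inactivate the retinoblastoma proteins, which frees E2F factors to transcribe many replication genes, and the inhibitor encoded by Cdkn1a opposes these kinases. Adult hepatocytes are largely quiescent and re-enter the cycle after injury or loss of liver mass.

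Most of these genes had their highest signal in livers kept on the vitamin A sufficient low fat diet throughout. The LF_LF mean was the highest of the 4 group means for 25 of the 38 genes (65.8%), against 24.4% of all genes tested. For 17 of the 38 (44.7%), both LF_LF arrays lay above all 6 other arrays, as they did for 10.3% of all genes, and for 0 did both lie below, against 9.41%. Without LF_HF replicate 1 the number above was 20 of 38 (52.6%), against 15.3% of all genes. Among the 34 genes well above background on all arrays it was 15 (44.1%), against 9.73% of such genes. In bulk liver, fewer cells of a type and less RNA per cell cannot be told apart.

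**Figure D1:**
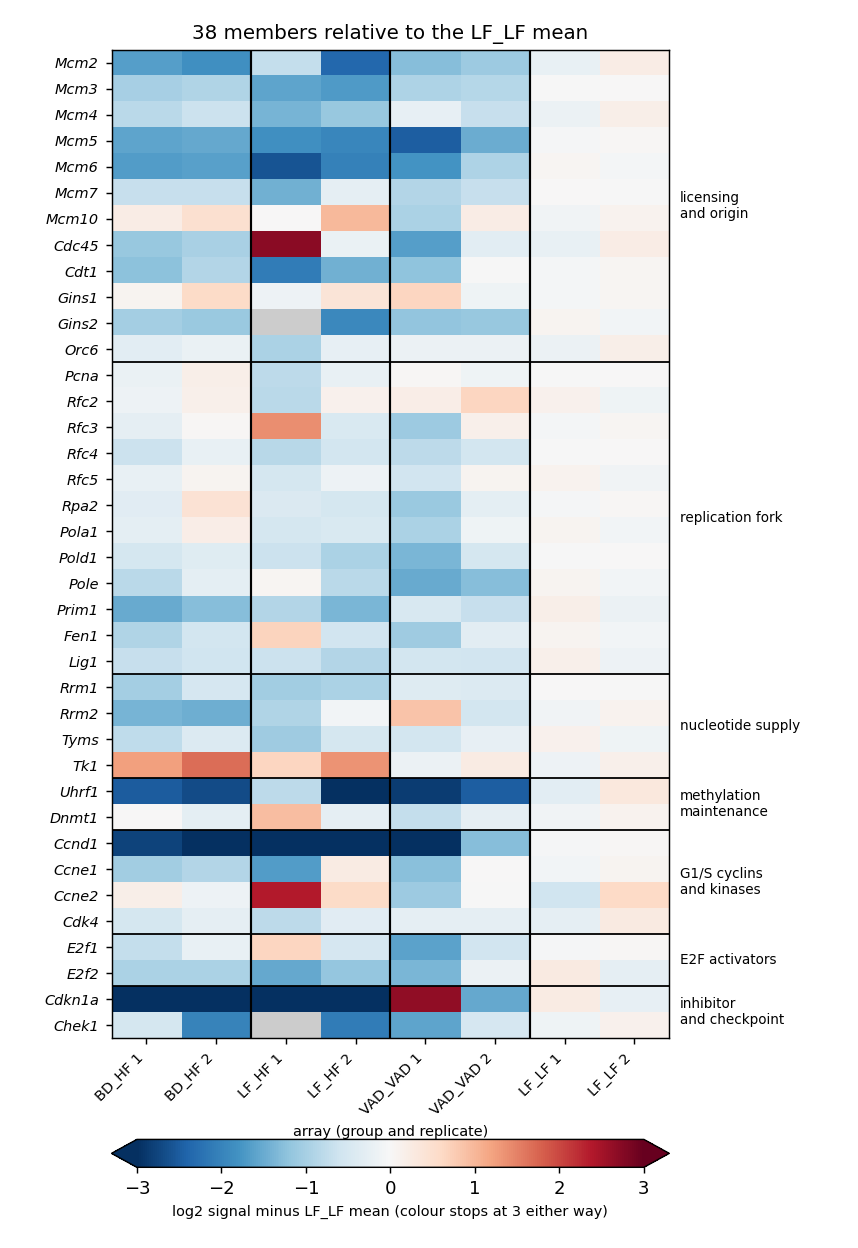
Log2 signal of 38 genes (rows, grouped by role) on 8 arrays (columns, 2 per diet group), each minus the gene's LF_LF mean; blue is below that mean, red above it, grey a spot rejected as an outlier, and colour stops at a difference of 3. Rows Mcm2 to Mcm7, Uhrf1 and Ccnd1 are blue on all 6 arrays outside LF_LF, and Tk1 is red on the 4 high fat arrays.

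With limma and Benjamini-Hochberg adjustment over all genes, few single genes passed an adjusted p of 0.05. In VAD_VAD against LF_LF 0 of the 38 passed, where 0.527% of all genes were called lower and 0.104% higher. At an unadjusted p under 0.05, limma gave 8 of the 38 (21.1%), against 10.3% of all genes. In LF_HF against LF_LF, Mcm3 and Mcm6 were called lower (5.26% of the 38), where 1.88% of all genes were called lower and 0.62% higher. There, 16 of the 38 (42.1%) had an unadjusted limma p under 0.05, against 16.6% of all genes. In BD_HF against LF_LF 0 passed, with 1.06% of all genes called lower and 0.458% higher. Here limma gave 12 of the 38 (31.6%) at an unadjusted p under 0.05, against 12.8% of all genes. An F test over the 4 groups called 0 of the 38 and 0.892% of all genes. At an unadjusted p under 0.05 this F test gave 13 of the 38 (34.2%), against 13.2% of all genes.

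Leaving out LF_HF replicate 1 raised the numbers of genes called lower than LF_LF, for all genes as well. VAD_VAD then had 4 genes called lower than LF_LF (10.5% of the 38, against 3.91% of all genes, with 1.34% of all genes called higher), namely Mcm5, Gins2, Pole and Uhrf1. LF_HF had 7 called lower than LF_LF (18.4%, against 8.66%, with 2.4% of all genes called higher), namely Mcm2, Mcm3, Mcm5, Mcm6, Gins2, Prim1 and Uhrf1. BD_HF had the same number called lower than LF_LF (18.4%, against 6.26%), by name Mcm2, Mcm3, Mcm5, Mcm6, Gins2, Prim1 and Uhrf1, and 1 called higher, Tk1 (2.63%, against 2.83%). The F test then called 8 of the 38 (21.1%, against 9.9% of all genes). At an unadjusted p under 0.05 the 4 tests, in the order VAD_VAD, LF_HF, BD_HF and F, gave 13, 17, 16 and 15 of the 38, against 22.1%, 24.4%, 24.8% and 25.4% of all genes.

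Most of the 38 genes lay below LF_LF in each group, whether or not they were called. The median difference from LF_LF over the 38 genes was −0.60 in VAD_VAD, −0.70 in LF_HF and −0.67 in BD_HF, while the median over all genes was 0.09, −0.02 and 0.11. The log2 difference was below 0 for 33 of the 38 in VAD_VAD (43.3% of all genes), 29 in LF_HF (51.3% of all genes) and 33 in BD_HF (41.5% of all genes). VAD_VAD arrays lay wholly below LF_LF arrays for 24 of the 38 (63.2%, against 25.5% of all genes) and wholly above for 1 (against 32.5%). LF_HF arrays lay wholly below for 25 (65.8%, against 22.7%) and above for 1 (against 21.8%). BD_HF arrays lay wholly below for 27 (71.1%, against 26%) and above for 3 (against 34.3%). Among the 34 genes well above background on all arrays, 21, 23 and 24 lay wholly below in the order VAD_VAD, LF_HF, BD_HF (61.8%, 67.6% and 70.6%, against 22.1%, 22.8% and 22.4% of such genes). Wholly above lay 1, 1 and 3 (against 35.5%, 20.3% and 37.6%). Each slide held 1 array of every group, and the median within slides 1 and 2 was −0.91 and −0.52 in VAD_VAD, −0.78 and −0.57 in LF_HF, and −0.77 and −0.51 in BD_HF.

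**Figure D2:**
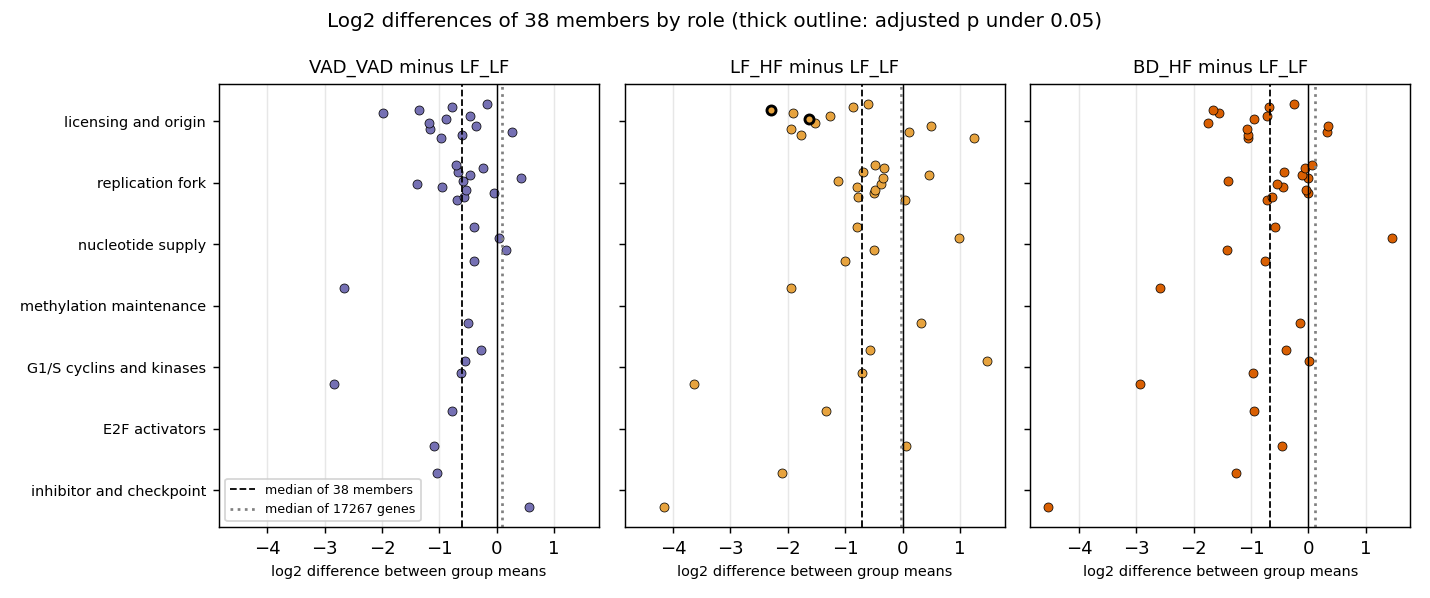
Log2 difference from LF_LF (x axis) of each of 38 genes (points) by role (y axis) for VAD_VAD, LF_HF and BD_HF; the dashed line is the median of these genes, the dotted line that of 17267 genes, and a thick outline marks an adjusted p under 0.05. The medians of the 38 genes lie at −0.60, −0.70 and −0.67, left of those of all genes, and Mcm3 and Mcm6 in LF_HF carry the outlines.

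For the helicase subunits Mcm2 to Mcm7, both LF_LF arrays lay above the 6 other arrays for each of the 6 genes. Mcm6 was at 1.17 and 1.23 in BD_HF, 0.27 and 0.83 in LF_HF and 1.06 and 1.93 in VAD_VAD, against 2.90 and 2.80 in LF_LF. Mcm3 was at −0.58 and −0.47 in BD_HF, −1.15 and −1.27 in LF_HF and −0.51 and −0.42 in VAD_VAD, against 0.41 and 0.44 in LF_LF. The spread within a pair of Mcm3 arrays was small beside the distance to LF_LF, and LF_HF was the lowest group for both genes. In LF_HF, Mcm6 was 4.93-fold lower than in LF_LF (log2 difference −2.30, SE 0.39, limma adjusted p = 0.0331) and Mcm3 differed by −1.63 (SE 0.29, adjusted p = 0.0358). A second Mcm3 probe gave −1.33. Over the alternatives tried the adjusted p ran from 0.000935 to 0.336 for Mcm6 and from 0.00284 to 0.404 for Mcm3. Both calls ended without any 1 of the BD_HF, VAD_VAD or LF_LF arrays, with array weights and with no probe filter, and that of Mcm3 also with the mean over its probes, although both differences stayed below −1.

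Mcm5 was at −1.52 and −1.48 in BD_HF, −1.78 and −1.91 in LF_HF and −2.42 and −1.43 in VAD_VAD, against 0.01 and 0.10 in LF_LF. All 3 groups were therefore well below LF_LF, by −1.55, −1.90 and −1.98 in that order (SE 0.38), with adjusted p of 0.129, 0.0530 and 0.0912. Mcm2 was at −2.93 and −3.10 in BD_HF, −1.98 and −3.62 in LF_HF and −2.54 and −2.35 in VAD_VAD, against −1.50 and −1.04 in LF_LF. LF_HF replicate 1 was the highest of the 6 Mcm2 values outside LF_LF, and without it the LF_HF difference was −2.35 (SE 0.31, adjusted p = 0.00812, 0.00812 to 0.82 over all alternatives), against −1.53 with it (SE 0.53, adjusted p = 0.211). With normexp background correction and its added offset of 50, the Mcm2 differences were −0.68 in BD_HF, −0.55 in LF_HF and −0.51 in VAD_VAD. Those of Mcm5 were then −1.31 in LF_HF and −1.37 in VAD_VAD. Mcm4 and Mcm7, the other members of the ring, differed from LF_LF by −0.47 and −0.79 in VAD_VAD, −1.26 and −0.86 in LF_HF, and −0.72 and −0.70 in BD_HF, none past the threshold.

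**Figure D3:**
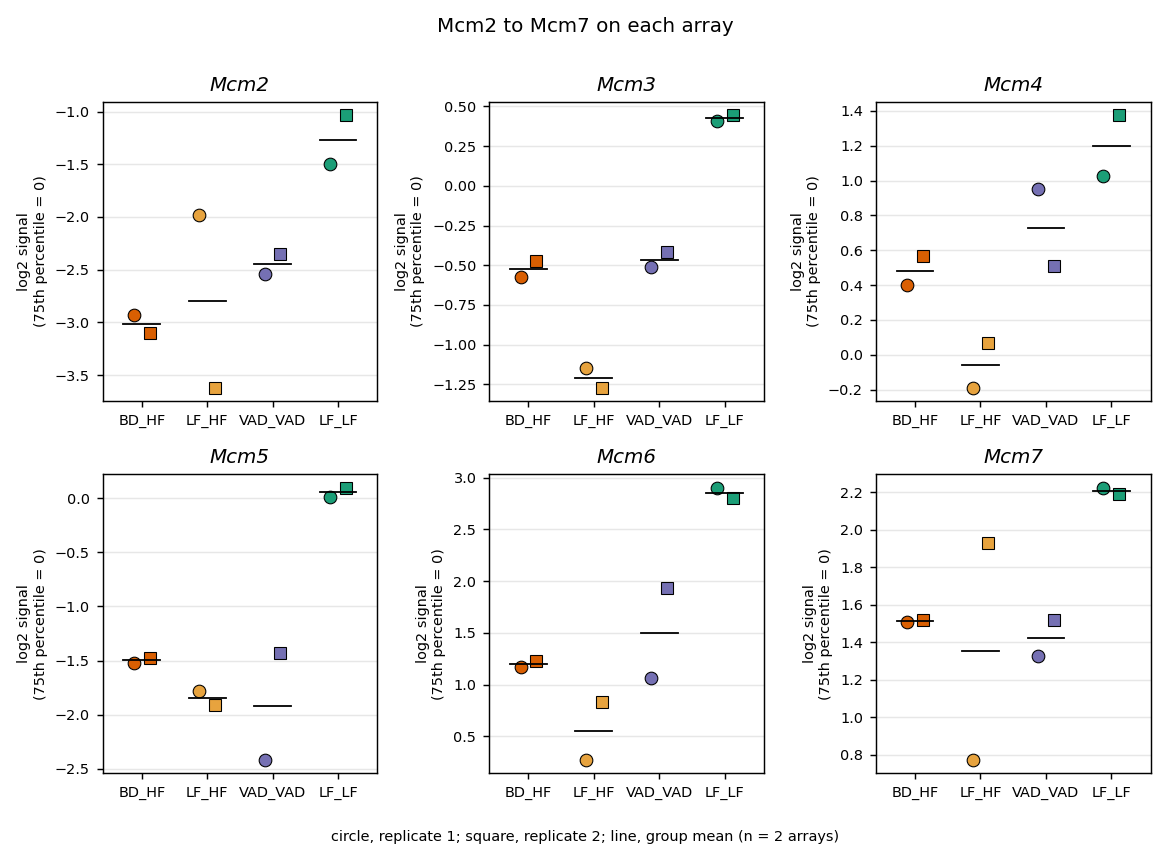
Log2 signal (y axis, 0 is the 75th percentile of the array) of Mcm2 to Mcm7 on each array by diet group (x axis); circles are replicate 1, squares replicate 2 and lines group means. In each panel the 2 LF_LF points lie above the other 6.

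Mcm3, Mcm5, Mcm6 and Mcm7, whose LF_LF signal stood above all other arrays, had in the RefSeq promoter table (build GRCm38.p6, 250 bases before to 50 after the start) words of the kind E2F factors bind. The words searched were TTTCCCGC, TTTGGCGC, TTTCGCGC and TTTGCCGC on both strands, and words on opposite strands can overlap. Their promoters are shown with those words in capitals, followed by that of Uhrf1, the gene with the largest VAD_VAD difference of those with a word, and by Mcm2 and Tk1, which have none and of which Tk1 had its highest signal in the high fat groups. They lie at chr1:20820263-20820562 (Mcm3, minus strand), chr8:75109259-75109558 (Mcm5, plus), chr1:128359656-128359955 (Mcm6, minus), chr5:138171834-138172133 (Mcm7, minus), chr17:56304063-56304362 (Uhrf1, plus), chr6:88898731-88899030 (Mcm2, minus) and chr11:117825965-117826264 (Tk1, minus).
Mcm3: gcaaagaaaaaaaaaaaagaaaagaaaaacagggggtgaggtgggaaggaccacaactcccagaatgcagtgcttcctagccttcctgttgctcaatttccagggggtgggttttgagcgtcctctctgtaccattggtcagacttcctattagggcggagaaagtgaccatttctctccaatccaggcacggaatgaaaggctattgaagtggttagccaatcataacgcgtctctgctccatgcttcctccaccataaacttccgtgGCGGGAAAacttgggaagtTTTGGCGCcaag
Mcm5: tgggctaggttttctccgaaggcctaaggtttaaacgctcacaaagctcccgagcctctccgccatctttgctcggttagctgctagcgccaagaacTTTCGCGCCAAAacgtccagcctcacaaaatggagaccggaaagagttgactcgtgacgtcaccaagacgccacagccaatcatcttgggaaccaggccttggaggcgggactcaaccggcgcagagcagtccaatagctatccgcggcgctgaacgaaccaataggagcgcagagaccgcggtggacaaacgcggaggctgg
Mcm6: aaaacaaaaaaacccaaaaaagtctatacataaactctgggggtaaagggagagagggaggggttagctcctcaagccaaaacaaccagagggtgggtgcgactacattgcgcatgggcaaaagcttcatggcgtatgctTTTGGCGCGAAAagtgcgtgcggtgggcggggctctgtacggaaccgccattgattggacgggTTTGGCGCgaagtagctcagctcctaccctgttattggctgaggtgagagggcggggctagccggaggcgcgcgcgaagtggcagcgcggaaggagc
Mcm7: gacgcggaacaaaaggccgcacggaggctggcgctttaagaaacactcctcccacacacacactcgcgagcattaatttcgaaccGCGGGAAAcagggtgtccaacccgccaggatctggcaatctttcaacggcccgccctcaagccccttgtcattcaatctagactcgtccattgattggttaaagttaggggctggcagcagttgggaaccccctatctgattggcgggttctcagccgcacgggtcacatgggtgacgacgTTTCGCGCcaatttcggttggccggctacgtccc
Uhrf1: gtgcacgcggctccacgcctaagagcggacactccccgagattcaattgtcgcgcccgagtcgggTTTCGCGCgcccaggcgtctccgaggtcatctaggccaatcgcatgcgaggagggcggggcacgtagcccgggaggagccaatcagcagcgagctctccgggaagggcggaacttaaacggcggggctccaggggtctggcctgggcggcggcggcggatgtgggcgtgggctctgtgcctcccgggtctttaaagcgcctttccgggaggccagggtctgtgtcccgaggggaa
Mcm2: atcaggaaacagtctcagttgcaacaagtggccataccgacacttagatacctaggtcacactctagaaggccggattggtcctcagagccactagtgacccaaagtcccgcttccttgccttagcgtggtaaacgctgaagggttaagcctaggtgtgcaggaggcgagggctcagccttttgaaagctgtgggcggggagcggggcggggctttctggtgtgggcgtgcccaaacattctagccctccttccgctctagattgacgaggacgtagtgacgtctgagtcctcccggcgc
Tk1: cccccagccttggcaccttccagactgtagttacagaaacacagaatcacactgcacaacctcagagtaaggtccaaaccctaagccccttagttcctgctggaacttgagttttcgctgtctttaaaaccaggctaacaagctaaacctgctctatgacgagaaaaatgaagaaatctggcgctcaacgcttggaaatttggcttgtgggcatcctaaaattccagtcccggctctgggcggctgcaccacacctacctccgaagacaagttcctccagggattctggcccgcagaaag
Mcm6 has 3 matches, and Mcm3, Mcm5 and Mcm7 have 2 each. Mcm7 and Uhrf1 each have another start in the table, with no match. Of the 34 genes with a promoter there, 15 (44.1%) had at least 1 match, against 2.61% of 27018 genes in the table, or 34.9% of 43 promoters against 2.27% of 32841. By role, matches were found in 7 of 11 licensing genes, 4 of 10 fork genes and 0 of 4 nucleotide supply genes. The letters CCAAT, searched on both strands, were in 58.8% of the 34 genes and 41.1% of all genes. By role, CCAAT was in 9 of 11 licensing genes (81.8%). Among 26 genes of mitosis, an E2F word was in 1 (3.85%) and CCAAT in 21 (80.8%). A match describes the sequence and does not show binding.

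The other licensing and origin genes differed among themselves. Gins2, a GINS subunit, was at −2.55 and −2.63 in BD_HF, −3.47 on the single LF_HF array with a value, and −2.71 and −2.65 in VAD_VAD, against −1.45 and −1.60 in LF_LF. Every Gins2 value outside LF_LF was thus below both LF_LF values, with differences of −1.07, −1.94 and −1.16 (SE 0.31, 0.38 and 0.31, limma adjusted p = 0.207, 0.0592 and 0.242). The LF_HF value rests on 1 array, since the spot on the other was rejected as an outlier. Cdt1, the loading factor, differed from LF_LF by −1.06 in BD_HF and −1.77 in LF_HF without a call (adjusted p = 0.408 and 0.112), and 1 of its VAD_VAD arrays, at 1.38, lay between the LF_LF arrays at 1.34 and 1.45. Orc6 of the origin recognition complex differed by −0.60 to −0.17, and Mcm10 and Gins1, a replication initiation factor and a GINS subunit, by −0.37 to 0.49. A second Gins1 probe gave 0.43 in BD_HF, 0.92 in LF_HF and 0.59 in VAD_VAD. The only Mcm10 probe was at 4.37 to 6.31, above every other licensing gene, and whether it reads Mcm10 alone was not tested. Cdc45 was above background on both arrays only in LF_LF, and its value of −1.65 on LF_HF replicate 1 lay far above the −5.99 to −4.12 of the other 7.

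The replication fork genes had smaller differences, most of them below 0. Their median difference from LF_LF was −0.57 in VAD_VAD, −0.49 in LF_HF and −0.27 in BD_HF over 12 genes, with 0 called by limma in each and 2, 2 and 1 of 12 at an unadjusted p under 0.05, against 10.3%, 16.6% and 12.8% of all genes. Prim1, the catalytic subunit of primase, was at −0.69 and −0.47 in BD_HF, −0.08 and −0.55 in LF_HF and 0.34 and 0.11 in VAD_VAD, against 0.99 and 0.63 in LF_LF. BD_HF was lowest here and VAD_VAD nearest to LF_LF, with differences of −1.39, −1.13 and −0.59 in the order given (SE 0.33, adjusted p = 0.118, 0.154 and 0.627). Pole, the catalytic subunit of polymerase epsilon, was instead lowest in VAD_VAD. It was at −1.46 and −0.93 in BD_HF, −0.58 and −1.46 in LF_HF and −2.17 and −1.91 in VAD_VAD, against −0.56 and −0.73 in LF_LF. Its VAD_VAD difference was −1.39 (SE 0.40, adjusted p = 0.248), and without LF_HF replicate 1 the adjusted p was 0.0373 at the same difference (0.0220 to 0.9999 over all alternatives), while with normexp the difference was −0.76.

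Pcna, the sliding clamp of the fork, was nearly level. It was at 2.40 and 2.77 in BD_HF, 1.82 and 2.38 in LF_HF and 2.64 and 2.47 in VAD_VAD, against 2.60 and 2.60 in LF_LF. BD_HF and VAD_VAD enclosed the LF_LF arrays, and the differences were −0.01, −0.50 and −0.05 (SE 0.34). Rfc4, Pold1 and Lig1, a clamp loader subunit, the catalytic subunit of polymerase delta and the ligase that joins Okazaki fragments, had LF_LF arrays above all others, with differences of −0.96 to −0.43. Rfc2, Rfc3, Rfc5, Rpa2, Pola1 and Fen1 ranged from −0.73 to 0.47 over the 3 comparisons with LF_LF.

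Genes of nucleotide supply lay on both sides of LF_LF. Rrm1, the large subunit of ribonucleotide reductase, was at −0.49 and 0.03 in BD_HF, −0.53 and −0.43 in LF_HF and 0.15 and 0.12 in VAD_VAD, against 0.54 and 0.51 in LF_LF. Each array outside LF_LF was lower, by −0.76, −1.01 and −0.40 on average (SE 0.32, adjusted p = 0.376, 0.174 and 0.731). Tk1, cytosolic thymidine kinase of the salvage pathway, went the other way and was picked out here after its values were seen. It was at 2.64 and 3.09 in BD_HF, 2.04 and 2.75 in LF_HF and 1.24 and 1.65 in VAD_VAD, against 1.24 and 1.57 in LF_LF. The 4 high fat arrays were above the 4 low fat arrays, with differences of 1.46 in BD_HF, 0.99 in LF_HF and 0.04 in VAD_VAD (SE 0.38, adjusted p = 0.150, 0.256 and 0.981). Rrm2, the small reductase subunit, differed by −1.43 in BD_HF, −0.50 in LF_HF and 0.16 in VAD_VAD. Tyms, thymidylate synthase, differed by −0.59, −0.80 and −0.39 in that order by its brightest probe, and a second probe kept these signs, but another, dimmer probe gave 1.10, 2.12 and −0.01.

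Uhrf1, which reads hemimethylated DNA and recruits Dnmt1 to newly copied strands, was far below LF_LF on 5 of the 6 other arrays. It was at −3.84 and −4.05 in BD_HF, −2.14 and −4.45 in LF_HF and −4.20 and −3.84 in VAD_VAD, against −1.68 and −1.03 in LF_LF. Apart from LF_HF replicate 1, which lay close to LF_LF, the arrays of the 3 groups did not come within 2 log2 units of it. The differences were −2.59 in BD_HF, −1.94 in LF_HF and −2.67 in VAD_VAD (SE 0.69, adjusted p = 0.157, 0.225 and 0.214). Without that array they were −2.59, −3.10 and −2.67, with adjusted p of 0.00569, 0.00620 and 0.00707, and over all alternatives the adjusted p ran from 0.00219 to 0.780, from 0.00620 to 0.837 and from 0.00707 to 0.9999. With normexp background correction the differences were −1.02, −0.65 and −1.08. A second probe gave −2.43, −4.45 and −2.16. Dnmt1, the maintenance methyltransferase itself, differed by −0.14, 0.33 and −0.49 (SE 0.45).

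Ccnd1, cyclin D1, was high and tight in LF_LF and lower elsewhere. It was at 0.91 and 0.60 in BD_HF, −0.02 and 0.15 in LF_HF and −0.72 and 2.42 in VAD_VAD, against 3.67 and 3.72 in LF_LF. The 4 high fat arrays lay close together, while the VAD_VAD arrays lay far apart. Ccnd1 differed from LF_LF by −2.94 in BD_HF, −3.63 in LF_HF and −2.84 in VAD_VAD, or 7.67-fold, 12.4-fold and 7.18-fold lower (SE 0.87, adjusted p = 0.195, 0.0880 and 0.278). Without VAD_VAD replicate 1 the VAD_VAD difference was −1.27, and without VAD_VAD replicate 2 it was −4.42. Leaving out VAD_VAD replicate 1 or 2, limma called it in BD_HF (adjusted p = 0.0327 or 0.0480) and in LF_HF (0.0170 or 0.0260) at the same differences, and leaving out LF_HF replicate 2 it was called in LF_HF (0.0421). Over all alternatives the adjusted p ran from 0.0134 to 0.817 in BD_HF and from 0.0170 to 0.508 in LF_HF. Cdk4, its kinase partner, had LF_LF arrays just above all others, by −0.56 to −0.27. Ccne1 and Ccne2, the E cyclins, ranged from −0.96 to 1.48, and the largest of these, 1.48 for Ccne2 in LF_HF, rested on −1.35 on replicate 1 beside −3.14 on replicate 2. Another Ccne1 probe gave 0.52 in LF_HF where the brightest gave −0.71.

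E2f2, an activating E2F, was at −1.46 and −1.46 in BD_HF, −2.03 and −1.66 in LF_HF and −1.87 and −0.68 in VAD_VAD, against −0.24 and −0.77 in LF_LF. The high fat arrays were all below LF_LF and a VAD_VAD array was not, with differences of −0.95, −1.34 and −0.77 (SE 0.45, adjusted p = 0.448, 0.199 and 0.639). E2f1 was at −2.53 and −2.03 in BD_HF, −1.18 and −2.32 in LF_HF and −3.43 and −2.40 in VAD_VAD, against −1.85 and −1.79 in LF_LF. Only LF_HF replicate 1 exceeded LF_LF for this gene, and the differences were −0.46, 0.07 and −1.10 (SE 0.50, adjusted p = 0.815, 0.965 and 0.531). Without LF_HF replicate 1 the LF_HF difference was −0.50. A second E2f1 probe gave, with all arrays, −0.04 in BD_HF, 0.62 in LF_HF and −0.45 in VAD_VAD. Without VAD_VAD replicate 1 the VAD_VAD differences of E2f1 and E2f2 were −0.58 and −0.18, against −1.61 and −1.36 without VAD_VAD replicate 2.

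Cdkn1a, which encodes the kinase inhibitor p21 and is a classic target of p53, did not follow the replication genes in VAD_VAD. It was at −3.21 and −2.99 in BD_HF, −1.81 and −3.62 in LF_HF and 4.11 and −0.08 in VAD_VAD, against 1.68 and 1.21 in LF_LF. The high fat arrays lay below all low fat arrays, and the VAD_VAD arrays fell on opposite sides of LF_LF. The differences were −4.54 in BD_HF, −4.16 in LF_HF and 0.57 in VAD_VAD (SE 1.23, adjusted p = 0.160, 0.153 and 0.895). Without VAD_VAD replicate 1 the BD_HF difference was called (adjusted p = 0.0494, 0.00769 to 0.792 over all alternatives), and the VAD_VAD difference became −1.53, against 2.66 without VAD_VAD replicate 2. On VAD_VAD replicate 1 the summed linear signal of the p53 target list was 175.8 times the 75th percentile, against 87.6 on the other VAD_VAD array and 74.1 and 72.4 in LF_LF. Most of the excess on that array came from 1 gene, Ddit4, an inhibitor of mTOR signalling that also responds to other stresses and was singled out here after its values were seen. It was at 96.4 and 26.5 in VAD_VAD, against 12.3 and 6.14 in LF_LF. The other 16 genes summed to 79.4 and 61.1 on the VAD_VAD arrays, against 61.8 and 66.3 for LF_LF. On the BD_HF arrays those 16 reached 50.8 and 63.1, and on the LF_HF arrays 37.7 and 53.5. The median difference of the list was −0.75 in BD_HF, −0.88 in LF_HF and −0.15 in VAD_VAD, with 11 of 19 genes below 0 in VAD_VAD, and whether the list bears on Cdkn1a was not tested. With normexp background correction Cdkn1a differed by −3.08 in BD_HF and −2.78 in LF_HF. Chek1, the kinase that stalls the cycle when replication stalls, was at −5.16 and −6.64 in BD_HF, −6.74 on the single LF_HF array with a value and −6.22 and −5.15 in VAD_VAD, against −4.78 and −4.50 in LF_LF. Only in LF_LF was it well above background, so its lower place was partly fixed by the filter. In the main processing the bounds were 1.29-fold lower in BD_HF, 1.17-fold in LF_HF, on that single array, and 1.40-fold in VAD_VAD. With normexp, which here added an offset of 50 to each signal, its differences were 0.09, 0.50 and 0.13. The direction of Chek1 thus depended on the processing, and the parts of correction and offset were not tested apart. The bounds set each array at its own value or the lowest signal well above background, whichever was higher.

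**Figure D4:**
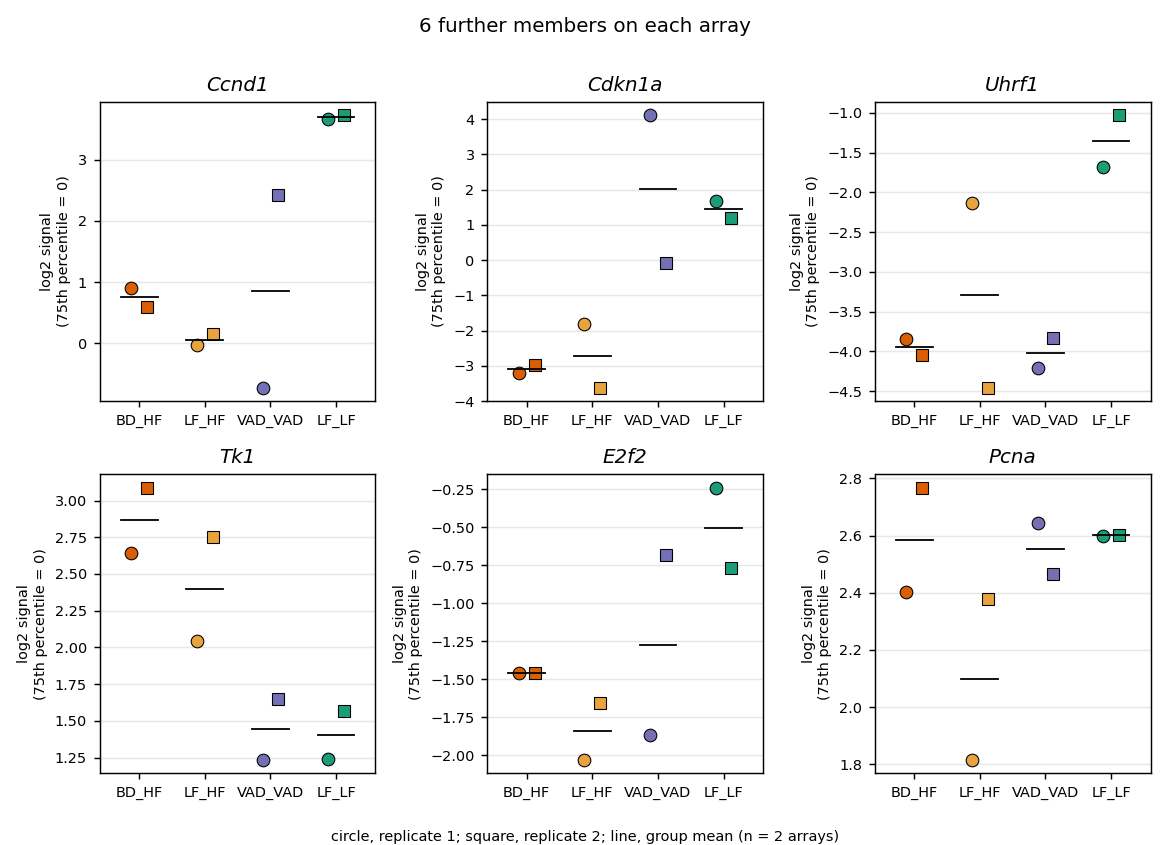
Log2 signal (y axis, 0 is the 75th percentile of the array) of Ccnd1, Cdkn1a, Uhrf1, Tk1, E2f2 and Pcna on each array by diet group (x axis); circles are replicate 1, squares replicate 2 and lines group means. Ccnd1 sits at 3.67 and 3.72 in LF_LF above all other points, Cdkn1a is lowest in the high fat groups, and Tk1 is highest there.

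The comparison of maternal diets, BD_HF against LF_HF, gave small differences for most of the genes. With limma 0 of the 38 genes were called, against 0.00579% of all genes called lower and 0% higher, and at an unadjusted p under 0.05 there were 2 (5.26%), against 5.39% of all genes. The median difference was 0.23 over the 38 genes and 0.17 over all genes. BD_HF arrays lay wholly above LF_HF arrays for 13 of the 38 (34.2%, against 18.7% of all genes, or 11 of the 34 against 19.5%), among them Mcm3, Mcm4, Mcm5, Mcm6, Cdt1 and Gins2, and wholly below for 3, Cdc45, Rrm2 and Ccne2 (7.89%, against 10.5%, or 1 of the 34 against 7.43%). The largest licensing difference outside Cdc45 was 0.88 for Gins2 (SE 0.38, adjusted p = 0.787). Mcm3 differed by 0.68 (SE 0.29, adjusted p = 0.787). Without LF_HF replicate 1 limma again called 0 of the 38 and 0% of all genes, with 3 of the 38 at an unadjusted p under 0.05, against 8.62% of all genes. Without LF_HF replicate 2, which leaves the array that stood apart as the single LF_HF array, 8 of the 38 were called, all lower (21.1%), against 40.1% of all genes called lower and 8.35% higher.

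Other replication genes, a list of 42 with 39 tested, had medians nearer to 0 than the 38, at −0.24 in BD_HF, −0.26 in LF_HF and −0.18 in VAD_VAD. Of these, limma called 1 lower in BD_HF, 1 in LF_HF and 0 in VAD_VAD. At an unadjusted p under 0.05 it gave 6 of the 39 in VAD_VAD, against 10.3% of all genes. Both calls were Chtf18, a subunit of an alternative clamp loader. Chtf18 differed by −2.65 in BD_HF (SE 0.38, adjusted p = 0.0342). In LF_HF it was at least 8.66-fold lower on the single array with a value, where it was not well above background. Among 28 other G1/S regulators tested, Ccna2, cyclin A2, was called lower by −3.91 in BD_HF and −4.39 in LF_HF (SE 0.53, adjusted p = 0.0224 and 0.0122), and Cdkn2c, an inhibitor of the cyclin D kinases, by −2.14 in LF_HF (SE 0.36, adjusted p = 0.0328). Ccna2 was well above background on 1 of 2 LF_HF arrays. In VAD_VAD limma called 0 of these 28, with 4 at an unadjusted p under 0.05, against 10.3% of all genes. Of 19 p53 targets tested, Phlda3, an inhibitor of Akt signalling, was called lower in each group, by −3.42 in BD_HF, −3.32 in LF_HF and −2.34 in VAD_VAD, and Pmaip1, the death factor Noxa, by −1.99 in BD_HF and −1.94 in LF_HF. Of the DNA damage genes, Fanca, a subunit of the Fanconi anaemia core complex, was called lower by −1.87 in BD_HF and −1.96 in LF_HF (SE 0.33, limma adjusted p = 0.0440 and 0.0321).

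Genes of mitosis had a larger median difference than the replication genes. Of 29 tested, 15 were called lower in BD_HF, 12 in LF_HF and 9 in VAD_VAD, with a median of −3.44, −2.99 and −2.95 in the same order. With the bounds described for Chek1 the medians were −3.11, −2.89 and −2.70. Among the called genes, Aurkb in BD_HF and Nusap1 in LF_HF were not well above background there, and were at least 2.59-fold and 10.9-fold lower. The Nusap1 bound rests on the single LF_HF array with a value. For any gene that passed through LF_LF alone, the lower place was partly fixed by the filter. Cdc20, which switches on the ligase that starts anaphase, differed by −5.11, −5.33 and −4.42 (SE 0.39, adjusted p = 0.00601, 0.00337 and 0.0153). Ccnb2, cyclin B2, differed by −4.03, −4.51 and −3.52 (SE 0.34, adjusted p = 0.00601, 0.00337 and 0.0159). Without LF_HF replicate 1 the mitosis calls were 26, 25 and 22. Summed over the 26 with a value on every array, the mitosis genes reached a linear level of 4.11 and 4.47 in BD_HF, 7.39 and 3.77 in LF_HF and 5.18 and 5.75 in VAD_VAD, against 51.5 and 36.2 in LF_LF. Ttk, a spindle checkpoint kinase, was the listed gene that did not pass the filter.

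**Figure D5:**
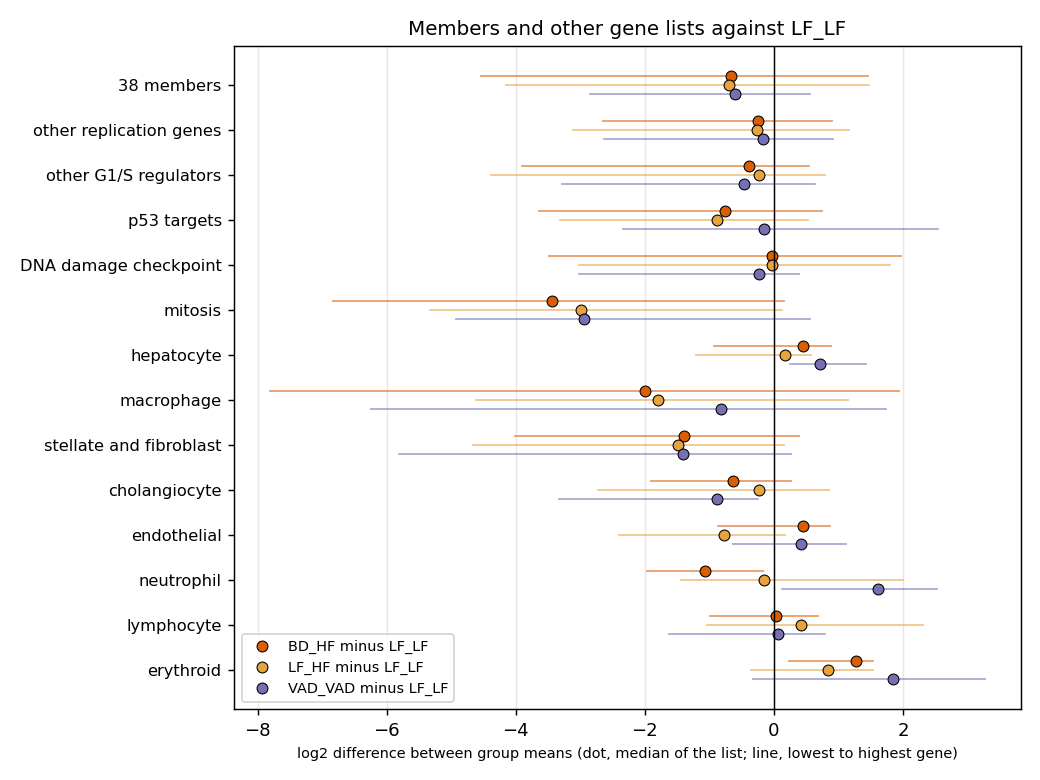
Median (dot) and lowest to highest gene (line) of the log2 difference from LF_LF (x axis) for the 38 genes and 13 other lists (y axis) in BD_HF, LF_HF and VAD_VAD. The mitosis medians lie between −3.44 and −2.95, and those of the 38 genes between −0.70 and −0.60. Signals near background are drawn as measured, without bounds.

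Markers of several non-parenchymal cells also differed between the groups, not all in the same direction. Macrophage markers summed to 88.3 and 98.8 in BD_HF, 72.9 and 62.9 in LF_HF and 88.2 and 128.5 in VAD_VAD, against 195.9 and 178.6 in LF_LF. Lyz2, the brightest of these markers in LF_LF, was at 6.68 and 6.46 there, against 4.58 and 4.92 in BD_HF, 4.07 and 4.22 in LF_HF and 4.82 and 5.39 in VAD_VAD. Of 14 tested, 5 were called lower in BD_HF, 6 in LF_HF and 1 in VAD_VAD, among them Trem2, a lipid receptor of macrophages, by −3.36, −3.71 and −2.77. Timd4 was called higher in BD_HF. The difference was below 0 for 9 of the 14 in BD_HF, 11 in LF_HF and 11 in VAD_VAD. Clec4f went the other way, at 3.99 and 4.21 in BD_HF, 3.73 and 3.79 in LF_HF and 3.53 and 4.10 in VAD_VAD, against 3.42 and 3.27 in LF_LF. Stellate and fibroblast markers summed to 102.7 and 132.4 in BD_HF, 71.6 and 72.7 in LF_HF and 158.5 and 116 in VAD_VAD, against 272.8 and 229 in LF_LF. Of 14 tested, 5, 6 and 5 were called lower in BD_HF, LF_HF and VAD_VAD, among them Col1a1, a fibrillar collagen, by −4.01, −4.67 and −3.81. Hepatocyte markers had a median of 0.45 in BD_HF, 0.17 in LF_HF and 0.71 in VAD_VAD, with 0 of 11 called by limma and 0, 1 and 0 at an unadjusted p under 0.05. Of 13 lymphocyte, 5 erythroid and 10 endothelial markers limma called 0 in any comparison with LF_LF, with at most 1, 3 and 2 at an unadjusted p under 0.05. Of all genes, 12.8%, 16.6% and 10.3% were under that p in BD_HF, LF_HF and VAD_VAD. Erythroid markers had a median of 1.26 in BD_HF (0.69 with bounds for signal near background), 0.84 in LF_HF and 1.85 in VAD_VAD. They summed to 180.5 and 160.5, 61.0 and 88.6, and 181.8 and 329.9 in that order, against 79.9 and 83.2 in LF_LF. Hba-a1 was the brightest of them on each array, at 7.32 and 7.04, 5.42 and 5.71, and 7.39 and 8.27 in that order, against 5.84 and 5.98 in LF_LF. Endothelial markers had a median of 0.45, −0.77 and 0.42 and lymphocyte markers of 0.04, 0.41 and 0.07. Of 7 neutrophil markers, S100a8, a calcium-binding alarmin, was called higher in VAD_VAD. Neutrophil markers summed to 1.85 and 2.35 in BD_HF, 3.86 and 6.33 in LF_HF and 19.5 and 25.8 in VAD_VAD, against 4.78 and 4.61 in LF_LF. Of 9 cholangiocyte markers 0, 2 and 1 were called lower in BD_HF, LF_HF and VAD_VAD. Without LF_HF replicate 1 the LF_HF medians were −2.22 for macrophage, −1.70 for stellate, −1.49 for cholangiocyte and −1.23 for endothelial markers. Those of neutrophil and erythroid markers were −0.13 and 0.26. The LF_HF medians of hepatocyte and lymphocyte markers were then 0.80 and −0.45. Elane, Camp, Epb4.2, Rhag and Cftr were among the genes of these lists that did not pass the filter. The part of these cell markers in the values of the replication genes was not tested.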

How the data were processed

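8 mouse liver RNA samples were hybridised to 8 single-colour Agilent arrays. The deposited files hold spot intensities from Feature Extraction 10.7.3.1, background-adjusted within each array, per the file headers, with other values used as flags for background, saturation and outliers. The submitters' processing notes name Agilent Feature Extraction and limma without versions. The series' own value table holds the same processed intensities as deposited and was used as a check.

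Here, log2 of the processed intensity was taken relative to the 75th percentile of each array's gene probes. Outlier spots were left out, spots of a probe were averaged, and a probe was kept if some group had it well above background in both samples. For each gene the kept probe of highest mean stood for it. One limma model (3.58.1, R 4.3.3, with jsonlite 2.0.0) was fitted on all genes and all 4 groups, with 4 residual and 3.43 prior degrees of freedom, Benjamini-Hochberg adjustment per comparison over all genes, and a threshold of 0.05. The procedure was also run on simulated data in which a gene had the same spread on all arrays. The real groups differ in spread, so that run does not show how reliable the calls here are. Figures used Python 3.11.15, pandas 2.3.3 and matplotlib 3.10.9. The number of arrays, 2 per group, limits the precision.

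The genes and all lists were chosen with earlier results of these data known. By rule, 14 are given array by array: those with an adjusted p under 0.05, the gene of smallest unadjusted p of each of the 7 roles in VAD_VAD and in LF_HF against LF_LF, and Ccnd1, Cdkn1a, Pcna and Mcm2. Others given array by array, Gins2 and Tk1, and the remaining values singled out were chosen after they were seen. From the other lists at most 4 called genes were named per comparison, and some genes of those lists are not reported here. Same-numbered arrays share a slide, per the file headers, and their deviations from the group means correlated at 0.0982 to 0.305. All pairs of groups were positive, and only LF_HF with VAD_VAD, at 0.0982, was not above 0.1, the level asked of every pair. The number was therefore not used as a block in the model, and the blocked fit is an alternative. The other alternatives were normexp background correction with an added offset of 50, quantile normalization, both together, and other filters. Further ones were trended and robust variance, array weights, the mean over probes, reference gene symbols and leaving out each array.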

Additional observations from a re-analysis of the deposited data

How the results depend on the processing

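The sign of the median difference over the 38 genes was kept in all 4 comparisons under all 18 alternatives. Leaving out 1 array gave medians of −0.96 to −0.36 in VAD_VAD, −0.78 to −0.55 in LF_HF and −0.74 to −0.53 in BD_HF against LF_LF, and 0.06 to 0.38 in BD_HF against LF_HF. The VAD_VAD extremes are the values without VAD_VAD replicate 2 and without VAD_VAD replicate 1. The numbers of genes called changed with most settings, and so did the share of all genes called, which is given after each set. They are in the order VAD_VAD, LF_HF and BD_HF against LF_LF, then the F test, where the report has 0, 2, 0 and 0. Normexp gave 3, 10, 7 and 4 (2.19%, 14.6%, 4.26% and 4.44% of all genes). Quantile normalization gave 0, 6, 1 and 1 (0.591%, 5.14%, 1.96% and 1.76%), and both together 2, 11, 4 and 5 (2.25%, 8.15%, 5.05% and 5.14%). No filter on dim probes gave 0, 0, 0 and 0 (0%, 0.118%, 0% and 0%). Requiring all arrays well above background gave 1, 5, 0 and 3 (1.13%, 4.37%, 2.29% and 2.95%). Trended and robust variance gave 1, 5, 4 and 5 (1.73%, 4.7%, 3.52% and 4.59%). Array weights gave 7, 0, 13 and 12 (6.74%, 0.133%, 16.2% and 11.3%), with weights of 0.195 for the LF_HF arrays and 3.28 for the LF_LF arrays. The mean over probes gave 0, 1, 0 and 0 (0.388%, 1.66%, 0.944% and 0.597%). In BD_HF against LF_HF these alternatives gave 0. Leaving out 1 array gave 0 to 4, 0 to 16, 0 to 8 and 0 to 14, and 0 to 8 in BD_HF against LF_HF. The 16 and the 14 are without LF_HF replicate 2, where 50.6% and 47.3% of all genes were called. The cause of these changes was not tested, except that leaving out an array also leaves fewer samples. Quantile normalization moved the median of all genes to −0.22 in LF_HF, against −0.02 in the report.

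Signs of single genes were followed over all alternatives only for the 14 genes given array by array by rule. Among these, no called difference changed sign, but some uncalled ones did. Other genes changed sign too. Without LF_HF replicate 1, Cdc45 in LF_HF against LF_LF was at −0.20, against 1.25 with it, and Ccne1 at 0.26, against −0.71. With normexp, Chek1 was at 0.13 in VAD_VAD, 0.50 in LF_HF and 0.093 in BD_HF against LF_LF, and at −0.40 in BD_HF against LF_HF. With quantile normalization, alone and after normexp, E2f1 in LF_HF against LF_LF was at −0.42 and −0.21. In BD_HF against LF_HF the same 2 settings gave 0.00942 and 0.020 for Pole, 0.54 and 0.059 for Uhrf1, 0.53 and 0.15 for Cdkn1a, and 0.83 and 0.26 for Mcm2. Leaving out 1 array, signs changed within these ranges against LF_LF: Cdkn1a in VAD_VAD −1.53 to 2.66, Pcna in VAD_VAD −0.13 to 0.042, Pcna in BD_HF −0.20 to 0.17, Pole in LF_HF −0.81 to 0.066 and E2f1 in LF_HF −0.50 to 0.63. In BD_HF against LF_HF they were Pole −0.62 to 0.26, Rrm1 −0.015 to 0.51, Uhrf1 −1.81 to 0.51, E2f1 −1.09 to 0.039, Cdkn1a −1.29 to 0.52 and Mcm2 −1.04 to 0.60.

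With the replicate number as a block, 0, 2, 0 and 0 genes were called, as without it, and the Mcm3 and Mcm6 calls in LF_HF had adjusted p of 0.0492 and 0.0371 by limma. Of all genes, the block left 49 called lower in VAD_VAD, against 91 without it, and 235 in LF_HF, against 324.

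With 2 arrays per group and a single array that stood apart, single-gene calls rest on few values. Signal near background limits Cdc45, Chek1 and Ccne2, which were not well above background on every array, as well as Gins2 and Chek1, which have 1 LF_HF value.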
